A study of Drosophila melanogaster with 2 samples.

Results

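A set of 7 G protein-coupled receptors for biogenic amines were followed through the nuclei of a nephrocyte dissection from adult Drosophila melanogaster. They were Dop2R for dopamine, TyrR and TyrRII for tyramine, Octalpha2R and Octbeta1R for octopamine, and 5-HT1A and 5-HT1B for serotonin. The 7 genes were picked from the 15423 genes in the files by name, because their levels had already been seen to differ between tissues in these data. Their levels are therefore given as a description, without a test.

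The flies were w1118; Dot-Gal4, UAS-GFP.nls, in which Gal4 under the Dot promoter puts a nuclear GFP into nephrocytes, and they were 5 to 7 days old. There was 1 female sample and 1 male sample of pooled flies, dissected 50 to a tube, and both samples carried the 2 transgenes. According to the study's methods the nuclei were stained with a DNA dye and sorted, and no gate on GFP is named there. Transcripts were counted by droplet single-nucleus RNA sequencing, in which each captured molecule carries a unique molecular identifier (UMI).

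The deposit held 2 count matrices, one named for each sex, but no label tied a matrix to a sample, so they are told apart here by their number of nuclei. The larger, named for the female sample, held 7890 nuclei and 19107558 UMIs, with a median of 1315 UMIs in a nucleus. The smaller, named for the male sample, held 5978 nuclei and 18130609 UMIs, with a median of 1481. Only 14 barcodes occurred in both. With 1 matrix of each kind there were no replicates. Every interval is therefore a 95% interval for counting error alone, and sex, dissection and library cannot be told apart.

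The 13867 nuclei with at least 200 detected genes fell into 40 clusters, formed without the 7 receptors and without the other amine genes described below. Marker genes named 18 clusters, which made 9 groups holding 5449 nuclei, and the other clusters are given by number. All samples carried the label nephrocyte, but the nephrocyte-like group held 55 nuclei. Of its 8 markers 6 were raised. The slit-diaphragm genes sns and kirre had 344 of 2261 and 442 of 34870 UMIs in that group. The endocytic receptor genes Cubn2 and Cubn had 95 of 748 and 62 of 1209. Amnionless and Klf15 rested on 6 and 3 UMIs. The marker mgl was not raised, with 22 of its 70307 UMIs there. Ugt36A1, the gene also called Dot, had 0 of its 100 UMIs in that group.

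Biogenic amines are small transmitters and hormones made from tyrosine or tryptophan. In insects tyramine and octopamine stand about where adrenaline and noradrenaline stand in vertebrates: tyrosine is decarboxylated to tyramine, which is hydroxylated to octopamine. Their receptors signal through G proteins that raise or lower cyclic AMP or release calcium, so the same amine can have opposite effects in tissues that carry different receptors. Outside the brain these amines act on muscle, gut, fat body and renal tubule.

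The total differed widely between the 7 genes. Octalpha2R had 2767 UMIs in 965 nuclei, Dop2R had 799 in 555, and TyrR had 676 in 444. The others were rarer: 5-HT1B had 258 UMIs in 234 nuclei, 5-HT1A had 198 in 129, TyrRII had 197 in 161 and Octbeta1R had 47 in 35. These totals also depend on the length and the 3' end of each transcript, so they are not compared as abundances. Most positive nuclei held a single UMI (for 5-HT1B, 212 of 234), whereas 303 nuclei held 3 or more UMIs of Octalpha2R.

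**Figure D1:**
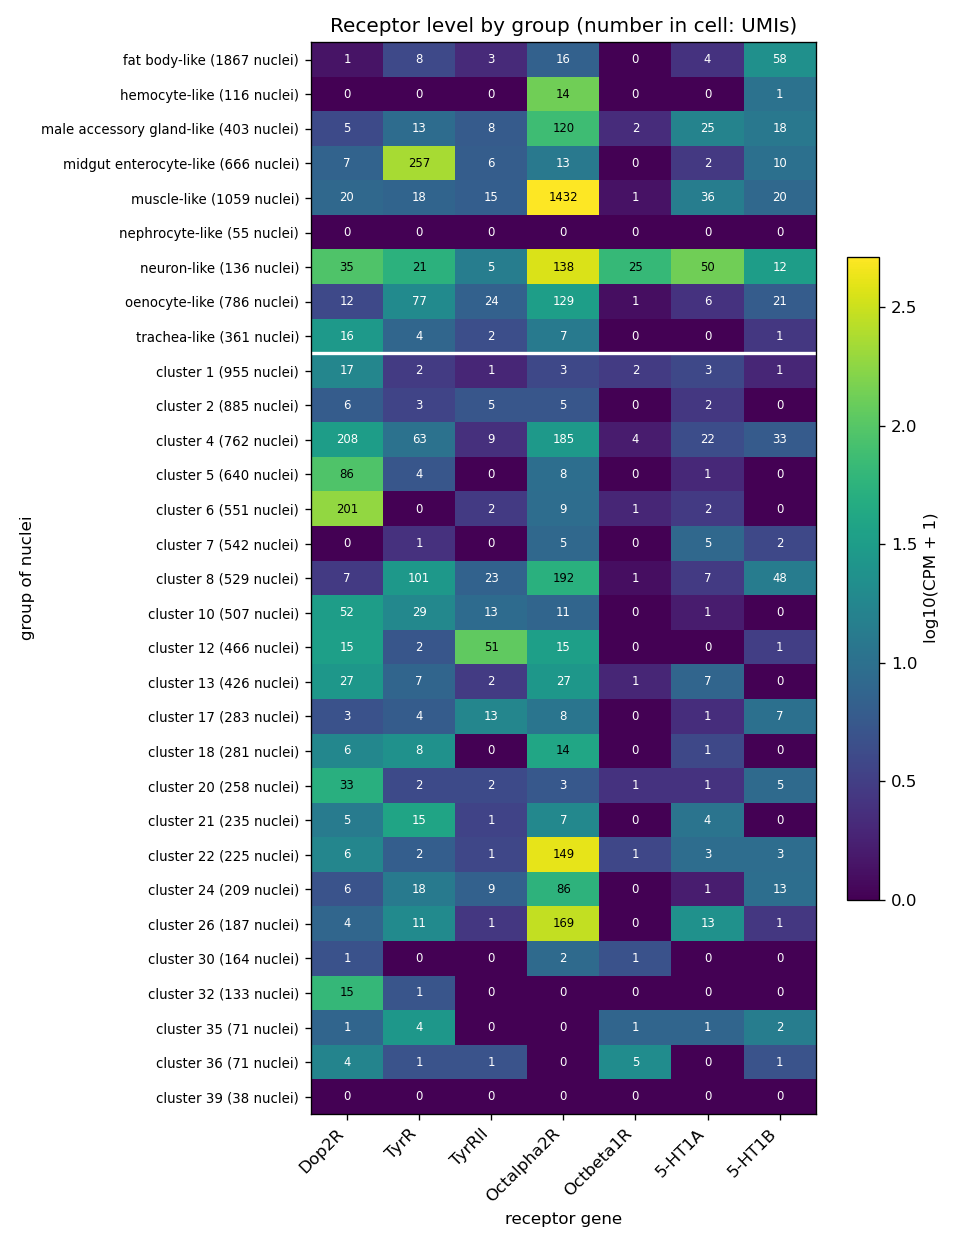
Level of the 7 receptors (columns) in the 31 groups of nuclei (rows; named groups above the white line), coloured by log10(CPM + 1), with the UMI count printed in each cell. The brightest cells differ by column: Octalpha2R in muscle-like nuclei (1432 UMIs), TyrR in midgut enterocyte-like nuclei (257), Dop2R in cluster 6 (201) and TyrRII in cluster 12 (51), while the rows of the nephrocyte-like nuclei and of cluster 39 are at 0 throughout.

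The 7 receptors led in 5 groups of nuclei. In the following, a level is given as CPM, the UMIs of the gene per 1000000 UMIs of the group. Over both matrices together, Octalpha2R was highest in muscle-like nuclei, TyrR in midgut enterocyte-like nuclei, Dop2R in the unnamed cluster 6, TyrRII in the unnamed cluster 12, and Octbeta1R, 5-HT1A and 5-HT1B in neuron-like nuclei. Within single matrices the first place changed for 2 receptors: in the larger one cluster 22 stood above muscle-like nuclei for Octalpha2R, and in the smaller one fat body-like nuclei stood above neuron-like nuclei for 5-HT1B. None of the 7 had a single UMI in the 55 nephrocyte-like nuclei. At the 52874 UMIs collected there, a count of 0 allows a level of up to 56.7 CPM. A level like that of 5-HT1B in neuron-like nuclei, 31.5 CPM, is therefore not excluded there.

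Dop2R is the D2-like dopamine receptor, which lowers cyclic AMP. It had 196 UMIs in the 402 cluster 6 nuclei of the larger matrix and 5 UMIs in the 149 of the smaller one. Over both matrices this was 189 CPM (95% Poisson interval 163 to 217). All other nuclei stood at 16.5 CPM, a ratio of 11.4 (9.68 to 13.4). Cluster 6 held 25.2% of all Dop2R UMIs, spread over 134 of its 551 nuclei, and no nucleus of it held more than 4. Of these nuclei 24.3% (exact binomial interval 20.8 to 28.1%) had a Dop2R UMI, against 0.0536% (0.00136 to 0.298%) of the 1867 fat body-like nuclei. The median depth was 1694 UMIs in the former and 1088 in the latter. In neuron-like nuclei 14.7% had a Dop2R UMI.

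Cluster 6 could not be named from markers. After CG13059 its highest ratio was that of Dop2R itself, followed by Cpr67B, a cuticle protein gene, CG11529 and Nadk1b. CG13059 stood at 1815 CPM in the cluster and 144 elsewhere, and Cpr67B at 790 and 99.7. Among the marker lists, 4 of 9 tracheal, 3 of 11 epidermal and 3 of 14 fat body markers were higher there than elsewhere by their intervals. The tracheal regulators trh and dysf were at 0, and so were 5 of the epidermal markers. The summed neuronal markers, at 103 CPM, lay below the 383 CPM of the other nuclei, and onecut, VGlut, VAChT and Gad1 were at 0.

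The next levels of Dop2R were 92.5 CPM in cluster 5 (86 UMIs) and 91.8 CPM in the neuron-like nuclei (35 UMIs), which did not differ beyond their intervals. Cluster 5 was led by CG16820, CG9747 and Jhbp13. By number of UMIs, cluster 4 held the most Dop2R (208, or 26.03%). It consists of 762 nuclei of the larger matrix with a median of 6557.5 UMIs, and its level was 31.6 CPM. These UMIs came from 135 of its nuclei, or 17.7%, and the level lay below that of cluster 6. Fat body-like nuclei were at 0.376 CPM and oenocyte-like nuclei at 2.98 CPM. Hemocyte-like nuclei had none, which allows up to 28.6 CPM.

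Dop2R differed between the matrices more than any other of the 7. It had 748 UMIs in the larger matrix and 51 in the smaller one, or 39.1 and 2.81 CPM, a ratio of 13.9 (10.47 to 18.9). Of the 11736 genes with at least 20 UMIs, 1.53% were at least 10-fold higher in the larger matrix with an interval above 1, and 3.56% at least 3-fold. The difference held within groups. In cluster 6 it was 246 against 18.5 CPM, a ratio of 13.3 (5.61 to 41.5), where 28 of 3898 genes (0.718%) reached 10-fold. Within each matrix cluster 6 still stood above the other nuclei, by a ratio of 8.17 (6.91 to 9.64) in the larger and 7.19 (2.23 to 18.0) in the smaller one. In the smaller matrix its 5 UMIs lay in 3 nuclei, with 3 UMIs in 1 nucleus, without which it was at 7.43 CPM. Cluster 32 was higher in that matrix, at 31.6 CPM, but from 2 UMIs in 1 nucleus. In neuron-like nuclei Dop2R was at 164 against 16.1 CPM, from 32 and 3 UMIs. In cluster 5 it was 129 against 3.70 CPM, from 85 and 1 UMIs.

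In 15 groups with enough nuclei and UMIs in both matrices, Dop2R was higher in the larger matrix each time. The interval left out a ratio of 1 in 10 of them. The neighbouring genes did not share 1 direction. The long noncoding RNA gene lncRNA:CR45628, next after Dop2R in the RefSeq annotation, had 135 UMIs in the larger matrix and 12 in the smaller. It was also among the genes most like Dop2R over the clusters. CG9570, which overlaps Dop2R, had 4 and 113. The gene on the other side, lky, had 23 and 18. Whether reads of these genes were counted by strand is not given by these sources, so overlapping reads cannot be told apart.

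**Figure D2:**
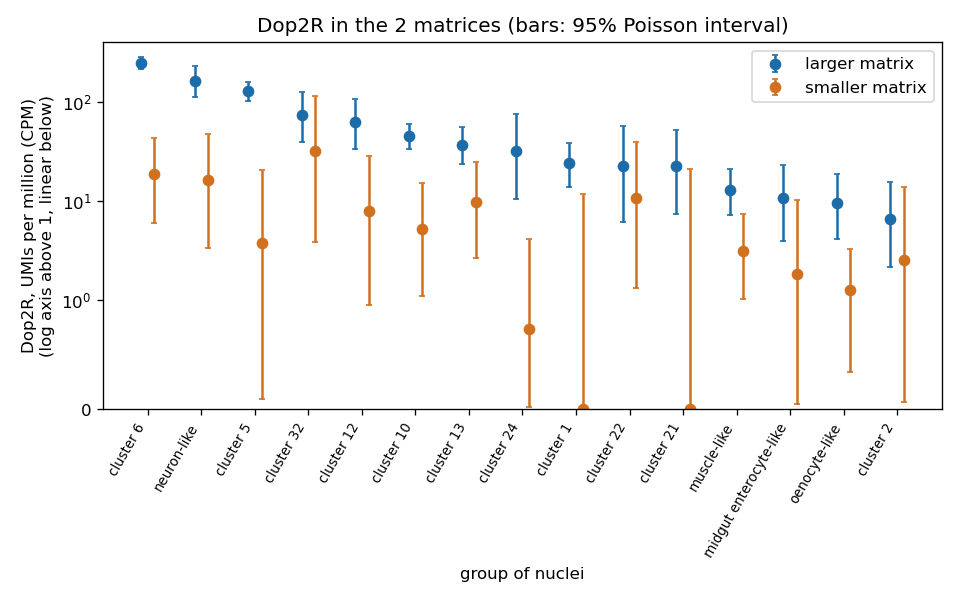
Dop2R in CPM (vertical axis, logarithmic above 1 and linear below) in each group that could be compared, for the larger (blue) and the smaller (orange) matrix, with 95% Poisson intervals. Groups entered by their UMIs over both matrices together, most of which lay in the larger matrix. The blue point lies above the orange one in all 15 groups, from 246 against 18.5 in cluster 6 to 6.57 against 2.50 in cluster 2, although the intervals of several groups overlap.

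TyrR is the tyramine receptor known for its role in the stellate cells of the renal tubule, where tyramine raises chloride flow and urine output. In these dissections it was highest in midgut enterocyte-like nuclei, the absorptive cells of the gut. There it had 83 UMIs in 351 nuclei of the larger matrix and 174 in 315 nuclei of the smaller one. The pooled level was 230 CPM (203 to 260). The remaining nuclei stood at 11.6 CPM, a ratio of 19.8 (16.9 to 23.2). The group held 38.0% of the TyrR UMIs, and 24.3% of its nuclei (21.1 to 27.8%) had at least 1, against 0.428% (0.185 to 0.843%) in the fat body-like nuclei.

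The group consisted of clusters 11 and 27, which differed in TyrR. Cluster 11 stood at 309 CPM (268 to 354) and cluster 27 at 109 CPM (80.4 to 145). Their digestive enzymes went the same way: the amylase gene Amy-p was at 4352 CPM in cluster 11 and 1899 in cluster 27, and the trypsin-like gene Jon65Aiii at 2478 and 725. Of the 13 enterocyte markers, 10 were raised in cluster 11 and 6 in cluster 27. In each of the 2 clusters TyrR was higher in the smaller matrix. It was at 205 CPM in the larger and 406 in the smaller one in cluster 11, and at 66.7 and 160 CPM in cluster 27. For the group the ratio of larger to smaller was 0.463 (0.352 to 0.605). The other nuclei differed in the same direction, at 7.50 and 15.9 CPM, so that the ratio of enterocyte-like to other nuclei was 19.5 (14.7 to 25.8) in the larger and 19.9 (16.3 to 24.1) in the smaller matrix.

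Since TyrR is best known from stellate cells, the 10 stellate markers were read in the same nuclei. Their sum was 7201 CPM in the enterocyte-like group (6117 in the larger, 8317 in the smaller matrix) and 1158 elsewhere. Of the 10, only SecCl, Drip, Prip and Lim3 were higher there by their intervals, with SecCl, a chloride channel gene, at 4240 against 202 CPM. None was at 0, but the stellate regulators tsh and tio stood at 8.06 and 0.896 CPM, below the 28.02 and 2.13 CPM of the other nuclei. Lkr, the leucokinin receptor gene, was at 9.85 against 6.62 CPM. Cluster 21, where Lkr, Drip, Prip and Lim3 were raised and which was left unnamed, held TyrR at 37.5 CPM from 15 UMIs.

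The neuron-like nuclei came second for TyrR with 55.1 CPM (34.1 to 84.2, 21 UMIs), below the enterocyte-like group. Oenocyte-like nuclei held more UMIs, 77, but from deep nuclei, at 19.1 CPM (15.1 to 23.9). The unnamed cluster 8, with 525 of its 529 nuclei in the smaller matrix, held 101 TyrR UMIs at 27.2 CPM. Fat body-like nuclei were at 3.01 CPM. Cluster 6, which led for Dop2R, held no TyrR UMI.

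TyrRII lies next to TyrR in the annotation, and its product responds to several amines. Its pattern was another one. It was highest in cluster 12, with 11 UMIs in 207 nuclei of the larger matrix and 40 in 259 nuclei of the smaller one. The pooled level was 111 CPM (82.7 to 146), against 3.97 CPM elsewhere, a ratio of 27.98 (19.9 to 38.7). Cluster 12 held 25.9% of the 197 TyrRII UMIs and 2 of the 676 TyrR UMIs. Conversely the enterocyte-like nuclei held 6 UMIs of TyrRII, or 5.37 CPM. Of the 444 nuclei with TyrR and the 161 with TyrRII, 14 carried both messages. The number expected from independent placement was not computed, so this count is not read as overlap or avoidance. Over the 40 clusters the log2 levels of the pair were correlated at r = 0.0617 (a description, since the clusters share libraries and differ in depth).

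The next group for TyrRII was far below cluster 12. This was cluster 17, which stood at 16.7 CPM from 13 UMIs, and no interval of the 11 remaining groups with at least 5 UMIs reached that of cluster 12. In the larger matrix cluster 12 was at 53.5 CPM and in the smaller at 158 CPM, a ratio of 0.339 (0.157 to 0.674). Over all nuclei the ratio was 0.297 (0.210 to 0.415). Cluster 12 stood above the other nuclei by a ratio of 28.1 (12.9 to 56.4) in the larger and 25.6 (17.4 to 37.1) in the smaller matrix. Among genes tested over all nuclei, 15.0% were at least 3-fold higher in the smaller matrix.

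Cluster 12 had no name. Its leading genes were CG40198 at 1629 CPM, the Pax-family gene Poxm at 396, CG17738 at 170, the noncoding gene lncRNA:CR42765 at 296 and TyrRII itself. Raised were 5 of the 12 markers of tubule principal cells, among them the potassium channel genes Irk2 and Irk3 and the transcription factor gene ct, beside 3 of 9 tracheal markers. The summed principal-cell markers stood at 2681 CPM in the larger matrix and 299.6 in the smaller one, the opposite direction to TyrRII. The part of other cell types in the TyrRII level was not tested.

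**Figure D3:**
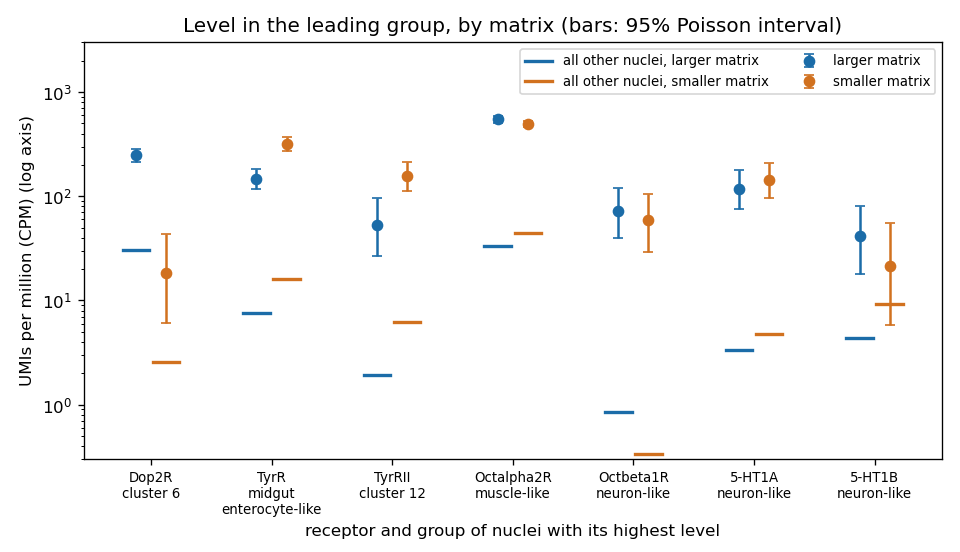
Level of each receptor in its leading group, in CPM on a log axis, for the larger (blue) and smaller (orange) matrix with 95% Poisson intervals; short bars of the same colour give all other nuclei of that matrix. For Dop2R the points (246 and 18.5) and the bars (30.1 and 2.58) both drop from the larger to the smaller matrix, for TyrR and TyrRII both rise, and the intervals of the 3 neuron-led receptors overlap between the matrices.

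Octalpha2R is the alpha2-like octopamine receptor, which lowers cyclic AMP. Its UMIs lay mostly in muscle-like nuclei, a group of 4 clusters that share muscle markers but not their leading genes, which in some are regulators of heart or visceral muscle. The group held 647 UMIs in 546 nuclei of the larger matrix and 785 in 513 nuclei of the smaller one. The pooled level was 517 CPM (491 to 544), against 38.7 CPM elsewhere, a ratio of 13.3 (12.4 to 14.4), and the group held 51.8% of the UMIs. Of these nuclei 47.9% (44.8 to 50.9%) had at least 1 UMI, against 0.857% (0.491 to 1.39%) of fat body-like nuclei. The share was 28.7% in neuron-like nuclei and 24.6% in cluster 26. For the muscle-like group the 2 matrices gave 550 and 492 CPM, a ratio of 1.12 (1.01 to 1.24). In the larger matrix cluster 22 was higher, at 664 CPM (550.0 to 796), from 118 UMIs in 6 nuclei.

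The level was uneven within muscle. Cluster 14 stood at 1164 CPM (1065 to 1269), cluster 23 at 793 (692 to 906), cluster 16 at 359 (330 to 389) and cluster 28 at 280 (232 to 334). Only the last 2 overlapped. Cluster 14 was led by MsR1, a myosuppressin receptor gene, and had 15 of 16 muscle markers raised, with titin-like sls at 34479 CPM. Cluster 23 was led by dcma, CG31821 and bin, the visceral mesoderm regulator biniou. Cluster 16 had 4 of 5 heart markers raised and counted the cardiac regulator tin and H15 among its leading genes. Its nuclei were also the deepest of the 4 clusters, with a median of 3253 UMIs, against 826 in cluster 14. Without cluster 16 the group stood at 741 CPM (692 to 793).

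The matrices differed in opposite directions in 2 of the 4 muscle clusters. In cluster 14 Octalpha2R was at 855 CPM in the larger matrix and at 1505 in the smaller, a ratio of 0.569 (0.473 to 0.682). In the heart-marked cluster 16 it was at 478 and 290 CPM, a ratio of 1.65 (1.40 to 1.94). Clusters 23 and 28 did not differ beyond counting error, with ratios of 0.777 (0.591 to 1.02) and 0.968 (0.663 to 1.41).

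Single nuclei weighed on several Octalpha2R values. In the muscle-like clusters the highest nucleus held 44 UMIs, and without it cluster 14 was still at 1069.6 CPM. Cluster 22, second of all groups over both matrices at 410 CPM, took 149 UMIs from 10 of its 225 nuclei, and 80 of these lay in 1 nucleus, without which it was at 193 CPM. Cluster 26 fell from 292 to 217 CPM without its top nucleus. Cluster 29 of the male accessory gland-like group had 81 of its 119 UMIs in 1 nucleus and fell from 90.0 to 29.1 CPM. Hemocyte-like nuclei, at 134 CPM, had 14 UMIs, of which 9 were in 1 nucleus, and were at 48.0 CPM without it.

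Muscle markers were also read in clusters 26 and 22. The 16 muscle markers summed to 17440 CPM in cluster 26, below the 44418 CPM of the muscle-like group. All 16 were above the other nuclei, beside 9 of 13 accessory gland markers. By the 3-fold rule for naming clusters, 7 of the 16 and 6 of the 13 were raised. In cluster 22 the muscle markers summed to 3400 CPM, below the 6041 CPM of the other nuclei. By the same 3-fold rule genes of many tissues were raised there, among them 11 of 17 spermatocyte and 9 of 12 principal-cell markers. Their part in the Octalpha2R levels was not tested. Doublets were not removed from these data.

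Neuron-like nuclei held Octalpha2R at 362 CPM (304 to 428), from 56 UMIs in the larger matrix and 82 in the smaller. That level lay below the muscle-like group and overlapped those of clusters 22 and 26. It did not rest on 1 nucleus, being 355 CPM without the highest. Midgut enterocyte-like nuclei were at 11.6 CPM and fat body-like nuclei at 6.02 CPM.

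**Figure D4:**
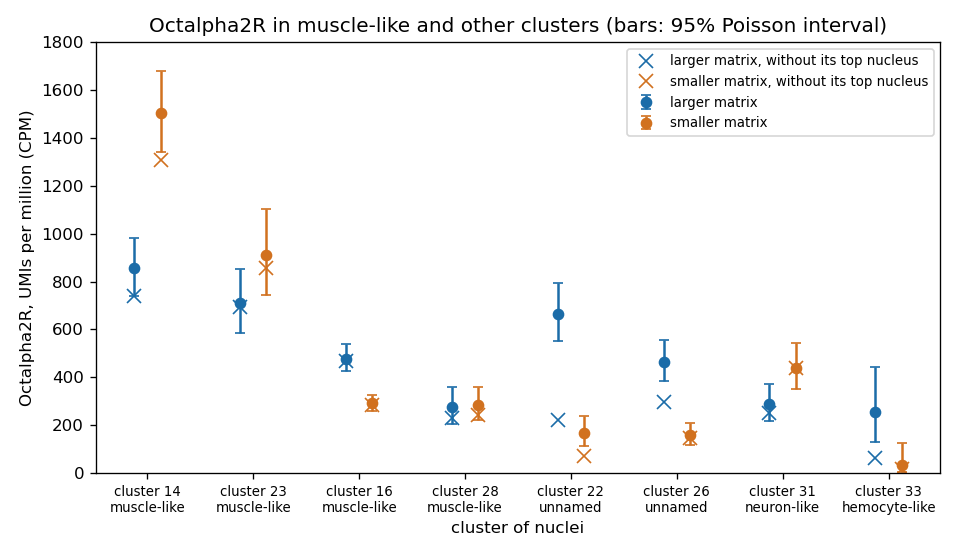
Octalpha2R in CPM by cluster for the larger (blue) and smaller (orange) matrix, with 95% Poisson intervals; crosses give the level without the nucleus holding most UMIs in that matrix. Among the muscle-like clusters the smaller matrix is higher in cluster 14 (1505 against 855) and lower in cluster 16 (290 against 478), and removing 1 nucleus takes cluster 22 of the larger matrix from 664 to 221.

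Octbeta1R, a beta-like octopamine receptor known from motor neurons, was the rarest of the 7. Neuron-like nuclei held 14 UMIs in the larger matrix and 11 in the smaller, 25 of the 47 in all. The level was 65.6 CPM (42.4 to 96.8), against 0.597 CPM elsewhere, a ratio of 110 (59.4 to 204). The 2 matrices gave 72.0 and 58.9 CPM and overlapped. The UMIs came from 15 of 136 nuclei, or 11.03% (6.31 to 17.5%). None of the 1867 fat body-like nuclei had one. By the limit of 3 counts this allows up to 0.161% of nuclei with a UMI, a limit on nuclei with a UMI and not on nuclei that express a gene counted this rarely.

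The only other group with at least 5 UMIs of Octbeta1R was cluster 36, 71 nuclei of the larger matrix led by Ir47a, SPR and CG5687. Its 19.7 CPM (6.39 to 45.9) overlapped the neuron-like interval. Of the 31 groups, 17 held no Octbeta1R UMI, and muscle-like nuclei held 1 (0.361 CPM), so the 2 octopamine receptors led in different tissues but met in the neuron-like nuclei.

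The neuron-like group that led for 3 receptors was a single cluster of 136 nuclei, 86 from the larger and 50 from the smaller matrix. All 13 neuronal markers were raised, including the synaptic genes Syt1 at 1167 CPM and nSyb at 435, and the sodium channel gene para at 4042. Also raised were 5 of 9 enteroendocrine markers, at a sum of 170 CPM against 10.6 elsewhere. Its genes of highest ratio were CG15537, CG15765, the acetylcholine receptor gene nAChRbeta1, Tmtc2 and CG42260.

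5-HT1A lowers cyclic AMP in response to serotonin and is known from sleep circuits and insulin-producing neurons. It had 23 UMIs in the neuron-like nuclei of the larger matrix and 27 in those of the smaller one. Their level was 131 CPM (97.3 to 173), against 4.02 CPM elsewhere, a ratio of 32.7 (23.2 to 45.3). The ratio between the matrices was 0.818 (0.448 to 1.48). The group held 25.3% of the UMIs, in 25 of 136 nuclei.

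Outside neurons 5-HT1A was thin but not evenly so. Cluster 26 was second with 22.5 CPM from 13 UMIs, 6 of them in 1 nucleus, and fell to 12.2 CPM without it. The male accessory gland-like nuclei, all of them from the smaller matrix, held 25 UMIs at 15.5 CPM (10.0 to 22.8), in their deep cluster 29 in 21 of 168 nuclei. Muscle-like nuclei held 36 UMIs at 13.0 CPM (9.10 to 18.0). These levels did not differ beyond their intervals. Fat body-like nuclei, with 4 UMIs, were at 1.51 CPM (0.410 to 3.86). Octalpha2R and 5-HT1A shared the most similar pattern after log transformation over the 40 clusters among the 21 pairs of the 7 receptors (r = 0.63), and 46 nuclei carried both.

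5-HT1B, the second inhibitory serotonin receptor, had no clear leading tissue. Of the groups over both matrices, the neuron-like nuclei were highest at 31.5 CPM (16.3 to 55.0), from 8 UMIs in the larger matrix and 4 in the smaller. Among single clusters, cluster 34 of the fat body-like group and cluster 38 of the male accessory gland-like group had higher values, 64.1 and 59.97 CPM from 14 and 6 UMIs, with intervals that overlap the neuron-like one. In the smaller matrix fat body-like nuclei, at 26.6 CPM, stood above neuron-like nuclei at 21.4 CPM, also with overlapping intervals. In the smaller matrix alone the ratio to the other nuclei was 2.34 (0.631 to 6.12) and did not leave out 1. The pooled level overlapped 6 other groups, and the ratio to all other nuclei was 4.72 (2.40 to 8.39). Of all groups, fat body-like nuclei held the most UMIs, 58 of 258 or 22.5%, at 21.8 CPM (16.6 to 28.2). There the larger matrix had 22 UMIs and the smaller 36, or 16.9 and 26.6 CPM, a ratio of 0.637 (0.357 to 1.11).

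Within the fat body-like group the clusters split by matrix. Cluster 0, found in the larger matrix alone, was at 17.0 CPM (10.7 to 25.8), and cluster 3, with 779 of 787 nuclei in the smaller matrix, was at 19.2 CPM (12.03 to 29.1). Cluster 34, 110 nuclei of the smaller matrix led by the immune-induced peptide gene BomBc3, was at 64.1 CPM (35.04 to 107.5) from 14 UMIs, above both. The fat body-like share of nuclei with a UMI was 2.89% (2.18 to 3.76%). For the other 6 receptors it lay between none and 0.857%. CG43351 overlaps 5-HT1B in the annotation and had 227 UMIs, so that reads of this pair cannot be told apart without strand.

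The other genes of amine signalling were read in the 5 leading groups from a list of 56, of which 53 were found and 48 had at least 20 UMIs. A gene was called when its level differed at least 3-fold from all other nuclei in each matrix and the interval of the pooled ratio left out 1. In neuron-like nuclei 10 of 48 were higher and 1 lower, where 4.29% of all 11736 genes tested were higher and 1.19% lower. In muscle-like nuclei 6 were higher and none lower, against 3.37% and 3.35%. In cluster 12, 8 were higher and 3 lower, against 1.68% and 3.66%. In enterocyte-like nuclei 1 was higher and 5 lower, against 1.55% and 3.43%. In cluster 6, 2 were higher and 9 lower, against 1.07% and 10.8%. These are counts on a list chosen with earlier results known, and they were not tested as a list.

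In muscle-like nuclei 3 further amine receptors stood beside Octalpha2R. Oct-TyrR, an octopamine and tyramine receptor, had 742 of its 1003 UMIs there, at 268 against 7.57 CPM, a ratio of 35.4 (30.7 to 40.9). Octbeta2R, which raises cyclic AMP, stood at 892 against 159 CPM, and 5-HT7, which does so for serotonin, at 98.9 against 16.2 CPM. The calcium-dependent adenylyl cyclase rut was at 1527 against 270 CPM and the protein kinase C gene Pkc53E at 189 against 49.9. Tdc2, the neuronal tyrosine decarboxylase, passed with 6 of its 23 UMIs. Without the heart-marked cluster 16 again 6 genes were called higher, 4 of them among those above; 5-HT7 and rut were then not called, and Pde1c and Tdc1 were. The median log2 ratio of the 10 other receptors was 0.33, against -0.51 for all genes tested.

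Of the 10 other amine receptors tested in enterocyte-like nuclei, 2 were called lower and none higher. Oct-TyrR had none of its 1003 UMIs there. Octbeta2R was at 59.1 against 218 CPM. The other 8 were not called. The median log2 ratio of the other receptors was -1.38, against -0.22 for all genes. The vesicular amine transporter Vmat was at 7.16 against 31.3 CPM, the G protein gene Ggamma30A at 9.85 against 58.1 and Pkc53E at 8.06 against 61.9. The adenylyl cyclase Ac78C was the 1 gene called higher, at 112 against 31.1 CPM.

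Of the 5 leading groups, neuron-like nuclei had the most genes called higher, 10 of 48. They also had the largest share called higher among all genes tested, 4.29%. Beside Octbeta1R, 5-HT1A and 5-HT1B, DopEcR, a receptor for dopamine and ecdysone, had 138 UMIs at 362 against 3.53 CPM, and the D1-like Dop1R1 had 20 at 52.5 against 4.18. Octbeta3R had 46 of its 93 UMIs there, at 121 against 1.28 CPM, and the calcium-coupled 5-HT2B had 12 of 46, at 31.5 against 0.922. Downstream, Ggamma30A, the cyclases Ac3 and Ac78C, the phosphodiesterase Pde1c, Pkc53E and the G protein regulator RSG7 were higher. Their ratios ran from 3.90 for Pde1c to 49.2 for Ac3. Tdc1, the tyrosine decarboxylase of non-neuronal tissue, was lower, with 1 UMI.

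Of the other dopamine receptors, Dop1R1 and DopEcR were called lower in cluster 6, with none of their 174 and 268 UMIs there. A count of 0 in this cluster allows up to 2.82 CPM, and 10.8% of all genes tested were called lower there. Dop1R2 was not called, at a ratio of 0.859. Of the serotonin receptors 5-HT2A stood at 7.51 against 167 CPM, and Oct-TyrR had 1 UMI. Ddc, which makes dopamine and serotonin from their precursors and also serves cuticle hardening, was higher at 1570 against 392 CPM. SerT, the serotonin transporter, was higher from 11 UMIs, at 10.3 against 1.27 CPM. Hn, the phenylalanine hydroxylase, had 2 UMIs. The cyclases rut, Ac76E and Ac78C and the phospholipase C gene Plc21C were lower, with ratios from 0.0520 for Ac76E to 0.178 for Plc21C.

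Cluster 12, where TyrRII led, carried both enzymes of octopamine synthesis. Tdc1, which makes tyramine, stood at 298 against 14.4 CPM, a ratio of 20.7 (17.03 to 25.03), and Tbh, which turns tyramine into octopamine, at 192 against 20.6 CPM, a ratio of 9.30 (7.37 to 11.6). 5-HT7 was at 183 against 20.4 CPM. Ggamma30A, rut, the phospholipase C gene norpA, the protein kinase A subunit gene Pka-R2 and the G protein regulator loco were higher too, rut at 2757 against 334 CPM. Tyrosine hydroxylase (ple), the first enzyme of dopamine synthesis, was lower at 575 against 1984 CPM, and 5-HT2A and Hn were lower with 13 and 1 UMIs.

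**Figure D5:**
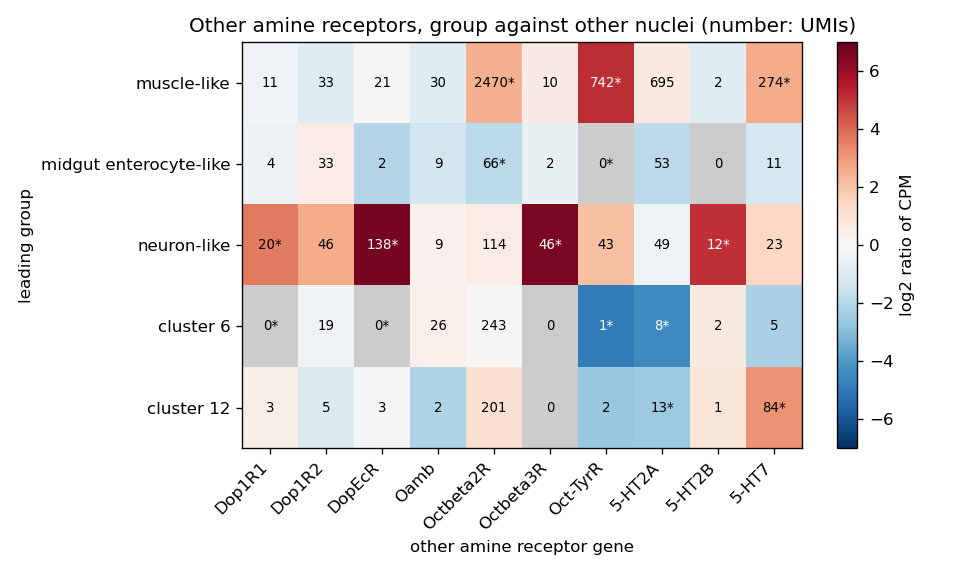
Other amine receptors (columns) in the 5 leading groups (rows), coloured by the log2 ratio of CPM in the group to all other nuclei, with the UMIs in the group printed and an asterisk where the gene was called; grey cells had no UMI. Muscle-like nuclei stand out for Oct-TyrR (742 UMIs) and Octbeta2R (2470), neuron-like nuclei for DopEcR (138), cluster 12 for 5-HT7 (84), and enterocyte-like nuclei had no UMI of Oct-TyrR.

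Genes with the most similar pattern were sought by the Pearson correlation of log2(CPM + 10) over the 40 clusters, among 10048 genes with at least 50 UMIs. The clusters share libraries and depth, so these are descriptions. For Octalpha2R they were Rgk3 (r = 0.936), LUBEL, Dhit, Frq2 and Shab (0.904), the last a potassium channel gene. For 5-HT1A they were CG42750 (0.874), dpr13, Nos, the nitric oxide synthase gene, CG13229 and Cbp53E (0.793). For TyrR they were CG33346 (0.866), CG6839, Amy-p, Shawl and Egfrap (0.837). For 5-HT1B they were Actbeta (0.855), Srg1, TBC1D5, CG11089 and CG17321 (0.824). For Dop2R they were Spn27A (0.826), a serpin gene, alc, CG15649, lncRNA:CR45628 and CG9411 (0.786). TyrRII was matched least closely, by CG34165 (0.734), CG6983, lncRNA:CR42765, Poxm and CG5326 (0.685). Octbeta1R had too few UMIs for this comparison.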

How the data were processed

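Libraries were made from nuclei with a 10x Genomics 3' kit, and per the labels and the methods the authors ran FastQC, Cell Ranger and Seurat. Neither the genome build nor the strand setting is given in these sources. The deposited values are raw UMI counts per gene and nucleus, in 2 matrices. No other column was used, and 15355 of 15423 gene identifiers matched a gene symbol.

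Nuclei with under 200 genes were left out (1 nucleus). Counts were scaled to 10000 per nucleus and log transformed. The 2000 most variable genes, without the receptors and pathway genes, gave 30 principal components, 15 nearest neighbours and Leiden clusters at resolution 2 (scanpy 1.11.5, leidenalg 0.10.2). Matrices were not integrated. Scrublet called 0 and 1 nuclei, so it had not worked and doublets stayed in. A cluster was named when at least 3 markers and 25% of a list were raised at least 3-fold, with no other list having 3 raised markers at 60% or more of that share (body and heart muscle excepted). The naming rule was set after the clusters had been seen, and clusters of 1 name were merged. Clusters named from the body muscle list are called muscle-like, because heart or visceral regulators were among the leading genes of some.

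Counts were summed per group. Intervals were exact Poisson, Clopper-Pearson or conditional binomial at 95%. A limit at 0 is 3 counts. Leading groups needed at least 10 nuclei, 5 UMIs and 3 positive nuclei. No test was run, because there were no replicates. The call rule was tested on simulated data. Named were the 7 members, each pathway gene called in a leading group, the markers and 5 highest-ratio genes of leading groups, and the 5 genes most like each receptor. Other genes were named after their values were seen. The members, lists and groups were chosen with earlier results of these data known. Alternatives were other resolutions, kept receptors, 400 genes, 2-fold thresholds, each matrix alone, thinning and leaving out the top nucleus.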

Additional observations from a re-analysis of the deposited data

How the results depend on the processing

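The alternatives kept each receptor's level and share within its counting interval except as follows. In these values the group stays that of both matrices together. By the same minimum of UMIs and nuclei within 1 matrix, cluster 22 (664 CPM) led for Octalpha2R in the larger and fat body-like nuclei (26.6 CPM) for 5-HT1B in the smaller matrix. At resolution 1, Dop2R was at 152.6 CPM with 31.04% of its UMIs in the leading cluster, and TyrR at 198 CPM with 33.7%. At resolution 3, Dop2R was at 224 CPM and the share of Octalpha2R was 57.1%. With the members and pathway genes kept in the clustering, Dop2R was at 229 CPM. With at least 400 genes, Dop2R was at 238 CPM, TyrR at 191.5 CPM and Octalpha2R at 481 CPM with a share of 55.4%. With markers counted at 2 times the other nuclei, cluster 27 lost its name, and TyrR was at 309 CPM with 30.9%. In the larger matrix alone, Dop2R was at 246 CPM, TyrR at 146.5, TyrRII at 53.5 and Octalpha2R at 550.4, and the 5-HT1B share was 8.89%. In the smaller alone, Dop2R was at 18.5 CPM with 9.80% of its UMIs there, TyrR at 316, TyrRII at 157.7, and the 5-HT1B share was 2.38%. Thinning each nucleus to 500 UMIs gives deep nuclei less weight. It gave shares of 36.0% for Dop2R, 60.9% for TyrR, 67.4% for TyrRII, 71.1% for Octalpha2R, 36.4% for Octbeta1R (4 UMIs) and 9.38% for 5-HT1B (3 UMIs), and Octalpha2R at 876 CPM. Without the heart-marked cluster 16, a choice made after seeing the data, Octalpha2R was at 741.1 CPM with 38.87% of the remaining UMIs. The causes were not tested. Leaving out the nucleus with most UMIs of a receptor moved none of the 7 beyond its interval.

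With a 2-fold threshold the pathway calls were 1 lower in muscle-like nuclei, 2 higher and 8 lower in enterocyte-like nuclei, 4 higher and 14 lower in cluster 6, and 6 lower in cluster 12. The 4 other counts stayed within 1.5 times, as did all 10 without a filter on low counts. The shares of all genes given above are for the 3-fold threshold. The 2-fold counts have no such share beside them and are not read as results about the list. No paired analysis was possible because each group had 1 sample and no test was run. Of the named groups, the nephrocyte-like nuclei had the fewest UMIs, 52874 in all.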

Other observations

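Other amine genes outside the leading groups also differed by tissue, read after the values were seen and without replicates. 5-HT2A, a calcium-coupled serotonin receptor, was highest in the unnamed cluster 13, with 1899 of its 6052 UMIs at 1834 CPM. Octbeta2R was highest in hemocyte-like nuclei at 1317.5 CPM (138 UMIs), above the 892 CPM of the muscle-like group that held 2470 of its 7938 UMIs. Cluster 36, second for Octbeta1R, held the highest levels of the octopamine receptor Oamb (26 UMIs, 102 CPM) and of SerT (14 UMIs, 55.1 CPM). Vmat, which loads amines into vesicles, was highest in trachea-like nuclei with 200 of its 1138 UMIs (345 CPM). Of the 361 nuclei of that group, 360 were in the larger matrix. The group raised 5 of 9 tracheal markers, Gasp, pio, uif, serp and verm. The other markers btl, trh, vvl and dysf were not raised there but in the unnamed cluster 18. For ple the highest level was in cluster 1, with 12998 of 73230 UMIs (12643 CPM).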
